A study of Mus musculus with 6 samples.

Results

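Replication-dependent histone genes supply the histone proteins that package newly copied DNA. They were taken as the protein-coding genes whose symbols begin with Hist1h, Hist2h, Hist3h or Hist4h. The rule found 67 of the 56748 genes in the deposited table, and 3 pseudogenes with such symbols were left out. By the histone they encode, 6 belong to H1, 18 to H2A, 18 to H2B, 12 to H3 and 13 to H4. In the GENCODE M21 annotation of GRCm38, 54 lie in the Hist1 cluster on chromosome 13, 10 in the Hist2 cluster on chromosome 3, 2 in the Hist3 cluster on chromosome 11 and 1, *Hist4h4*, on chromosome 6.

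The series asks how phosphoglycerate mutase (PGAM), an enzyme of glycolysis, bears on the differentiation of regulatory T cells (Tregs). Splenocytes are the labelled source, and the paper's methods describe naïve CD4 T cells purified from spleen and lymph nodes of wild-type C57BL/6J mice aged 6 to 10 weeks. The cells grew for 3 days (72 hr) with plate-bound anti-CD3, soluble anti-CD28, TGF-β, IL-2, anti-IFNγ and anti-IL-4, and were not sorted before RNA was taken. Of the 6 libraries of polyA RNA, 3 came from cultures labelled scrambled ASO and 3 from cultures labelled *Pgam* ASO, where an antisense oligonucleotide (ASO), a short strand that pairs with a matching RNA, was present at 10 μM from the start. The depth was 17588755, 18032805 and 16231127 total counts for scrambled ASO replicates 1, 2 and 3, and 16589933, 15860476 and 16803881 for *Pgam* ASO replicates 1, 2 and 3. Values below follow this order, scrambled ASO libraries before *Pgam* ASO libraries.

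Replication-dependent histone mRNAs accumulate in S phase, when DNA is copied, and fall as replication ends. Unlike other mRNAs they end in a short hairpin, bound by the protein SLBP, and carry no poly(A) tail, so a library of polyA RNA captures them poorly. H2A, H2B, H3 and H4 form the core around which DNA winds, H1 binds the DNA between cores, and variants made outside S phase from polyadenylated mRNA can take the place of most of them.

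The hairpin is shown first because it takes the place of a poly(A) tail. A 16-base hairpin with a stem of 6 bases and a loop of 4 was searched within 150 bases after the stop codon in GENCODE M21 transcripts. Of the 67 genes, 52 have an annotated 3′ UTR, and 46 of these hold the hairpin, which begins 21 to 58 bases after the stop codon with a median of 31. Among other protein-coding genes with a 3′ UTR, 109 of 20931 (0.521%) hold it. The sites of 5 genes described below follow, 5′ to 3′ on the strand of the gene on GRCm38, with the hairpin in capitals. They lie at chr13:22036300-22036315 (+) for *Hist1h2bk*, chr13:22043638-22043653 (+) for *Hist1h2bj*, chr13:22042483-22042498 (-) for *Hist1h2ag*, chr13:23739512-23739527 (+) for *Hist1h1c* and chr13:22040966-22040981 (-) for *Hist1h4i*, where the coordinates cover the capitals.
Hist1h2bk: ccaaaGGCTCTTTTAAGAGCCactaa
Hist1h2bj: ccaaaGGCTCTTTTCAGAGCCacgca
Hist1h2ag: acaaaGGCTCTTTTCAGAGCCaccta
Hist1h1c: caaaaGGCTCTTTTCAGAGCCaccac
Hist1h4i: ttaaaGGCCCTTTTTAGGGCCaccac
The hairpin of *Hist1h2bj*, *Hist1h2ag* and *Hist1h1c* is the form found in 26 of the 46 genes, that of *Hist1h2bk* is found in 6 and that of *Hist1h4i* in 2.

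The annotated mRNA does not always stop there. It runs on for 840 bases past the hairpin in *Hist1h1c* and for 330 in *Hist1h4i*, against 30, 23 and 23 bases in *Hist1h2bk*, *Hist1h2bj* and *Hist1h2ag*. In all, 23 of the 46 annotated mRNAs extend at least 100 bases past the hairpin.

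The targets of the ASO were examined before the histone genes. *Pgam1*, which encodes the widely expressed form of the enzyme, had 600, 478 and 707 TMM-normalized CPM (counts scaled to 1000000 a library, adjusted by edgeR's TMM method) in the scrambled ASO libraries and 658, 661 and 707 in the *Pgam* ASO libraries. The groups overlapped, and the log2 fold change, *Pgam* ASO over scrambled ASO throughout, was 0.18 (standard error, SE, 0.13, adjusted p = 0.331 in edgeR). *Pgam2*, the muscle form, had 5.23, 6.75 and 2.85 CPM in the libraries labelled scrambled ASO and 2.98, 2.69 and 2.60 in the others. Its groups overlapped too, and its log2 fold change was -0.84 (SE 0.31, adjusted p = 0.0854), reaching an adjusted p of 0.0144 when scrambled ASO replicate 3 was left out. Without a filter on low counts its adjusted p was 0.0292. The libraries are called by their labels, and PGAM protein, which the paper reports as lower with the *Pgam* ASO, was not analysed here.

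The histone genes together were at 99.7, 87.4 and 131 CPM in the scrambled ASO libraries and at 128, 100 and 90.2 CPM in the *Pgam* ASO libraries. Replicate 3 was the highest library of the first group and the lowest of the second, so the groups overlapped. Their means were 106 ± 22.6 (SD, n = 3) and 106 ± 19.8 CPM, a log2 ratio of 0.00059 with TMM that became -0.034 with library size alone. The share of cells in S phase and the histone mRNA in each cell both enter such a sum and cannot be told apart in these libraries. The genes held 0.0105% of all counts, or 1524 to 2119 counts a library, which limits what any one of them can show. The paper calls the 3 libraries of each label biological replicates, without saying whether they are separate animals, so each p measures only the spread between libraries.

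edgeR's filter on low counts needs enough counts in only 3 libraries, so a gene can pass through the group where it is higher. It passed 42 of the 67 genes. The other 25 were not tested: 7 had a count of 0 in every library and 18 had at least 1 count, with at most 23 in any library. Together the untested genes were at 4.61, 3.83 and 7.25 CPM in the scrambled ASO libraries and 5.16, 5.20 and 5.09 CPM in the *Pgam* ASO libraries. A count of 0 allows up to 3 counts, which is 0.166 to 0.189 CPM without scaling at these depths, and this limit covers counting error only. Tested histone genes had a median total of 142 counts over the 6 libraries, against 2139 over all 14936 tested genes. Their log2 fold changes had a median SE of 0.39, against 0.15.

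Of the 42 tested genes, 24 had a log2 fold change above 0 and 18 below, with a median of 0.086 against -0.0061 over all tested genes. An adjusted p under 0.05 was taken as a call. Called higher in the *Pgam* ASO libraries were 3 of the 42 (7.14%), beside 8.03% of all tested genes. Called lower by edgeR were 0, beside 9.15% of all tested genes, while 2 were lower at an unadjusted p under 0.05, beside 2650 of the 14936, and DESeq2 called 1, beside 1659. In either direction 17.2% of all tested genes were called. The groups did not overlap, with all *Pgam* ASO libraries above, for 5 of the 42 genes, beside 19.6% of all tested genes, and with all of them below for 3, beside 19.8%. The shares of called and of separated genes were thus no larger among the histone genes than among all tested genes. DESeq2 called 3 higher, beside 1554 of the 14936, and gave no adjusted p for 5 of the 42. In either direction it called 21.5% of all tested genes. The median of the histone genes was -0.021 without scrambled ASO replicate 1, -0.057 without *Pgam* ASO replicate 1 and 0.27 without scrambled ASO replicate 3, so its sign rested on single libraries.

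**Figure D1:**
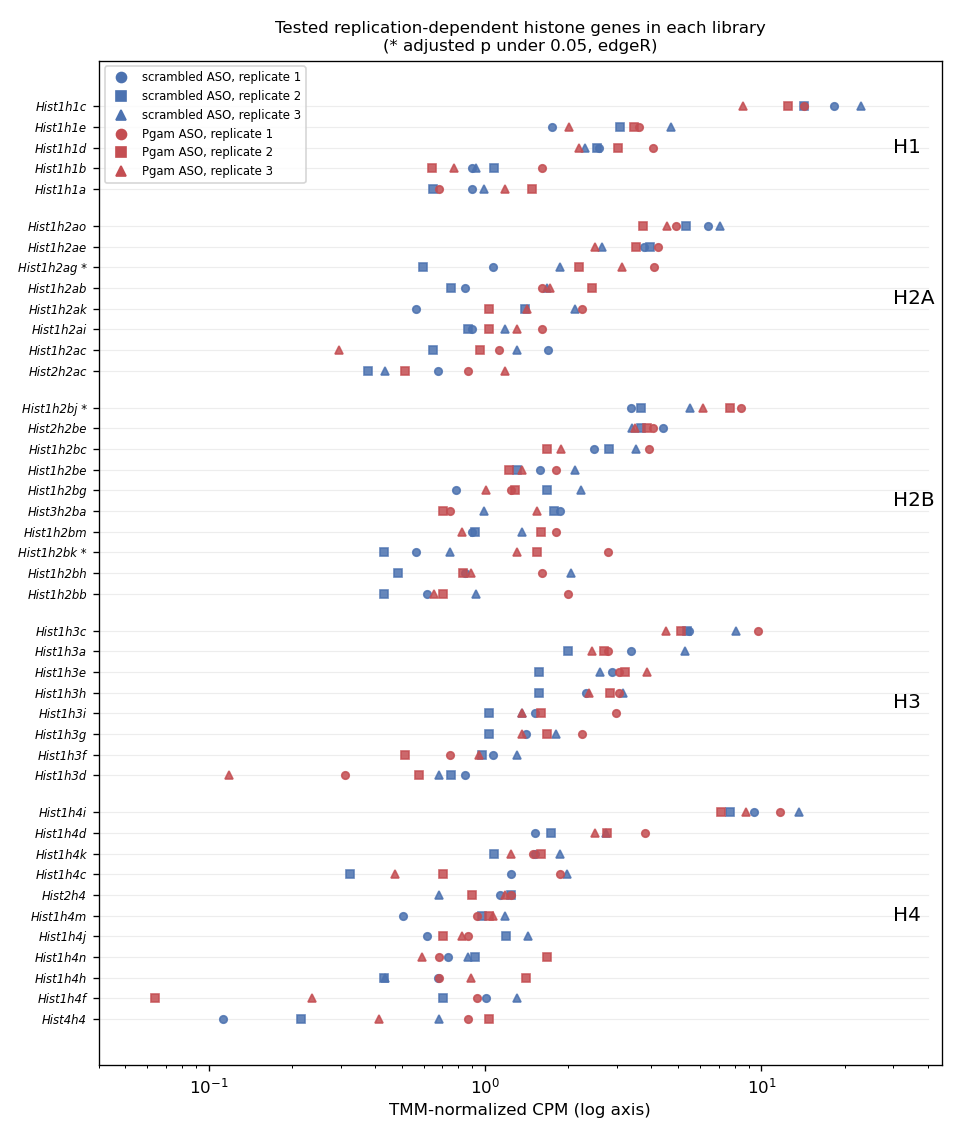
Level of each of the 42 tested histone genes in each library, in TMM-normalized CPM on a log axis, by family and in order of total count. Blue marks the scrambled ASO libraries and red the Pgam ASO libraries, the shape gives the replicate number, and a star marks the 3 genes with an adjusted p under 0.05 in edgeR. For most genes red and blue overlap.

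Single libraries of both labels stood out across the histone genes. Scrambled ASO replicate 3 and *Pgam* ASO replicate 1 were each the highest library for 15 of the 42 tested genes. Scrambled ASO replicate 2 was the lowest for 16, and *Pgam* ASO replicate 1 for 0.

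H1 is the linker histone. *Hist1h1c* (ENSMUSG00000036181), with the most counts of any histone gene here, had 326, 264 and 369 counts in the scrambled ASO libraries and 230, 195 and 145 in the *Pgam* ASO libraries. In counts every *Pgam* ASO library lay below every scrambled ASO library, but after scaling scrambled ASO replicate 2 and *Pgam* ASO replicate 1 met at 14.3 CPM. The log2 fold change was -0.65 (SE 0.22), with an adjusted p of 0.0638 in edgeR and 0.0283 in DESeq2. The edgeR value was 0.0498 with library size alone, 0.0016 without a filter on low counts and 0.114 with replicate number as a block. Without scrambled ASO replicates 1, 2 and 3 in turn it was 0.147, 0.0369 and 0.152, and without *Pgam* ASO replicates 1, 2 and 3 it was 0.0714, 0.159 and 0.132. Of its 31-base stretches 11.4% occur in other genes, and the part of its count that came from them was not tested. *Hist1h1e*, the next H1 gene per length, had 31, 57 and 76 counts against 58, 54 and 34, with overlap and a log2 fold change of -0.067 (SE 0.38, adjusted p = 0.92). *Hist1h1a*, *Hist1h1b* and *Hist1h1d* had log2 fold changes of 0.054 to 0.40 with adjusted p from 0.468 to 0.944. The testis gene *Hist1h1t* had 8 counts over all libraries and was not tested. Summed, H1 was at 24.5, 21.6 and 31.9 CPM against 24.3, 21.2 and 14.9 CPM, a log2 ratio of -0.37, while the median gene was at 0.054, so the fall in the sum lay in *Hist1h1c*.

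H2A pairs with H2B in the core. *Hist1h2ag* (ENSMUSG00000069301) had 19, 11 and 30 counts in the scrambled ASO libraries and 66, 34 and 53 in the *Pgam* ASO libraries. All 3 *Pgam* ASO libraries lay above all 3 scrambled ASO libraries. It was called higher, with a log2 fold change of 1.43 (SE 0.42, adjusted p = 0.0421 in edgeR and 0.0125 in DESeq2). The call held without scrambled ASO replicate 3 (adjusted p = 0.0134) and was lost without any other library: the adjusted p was 0.127 and 0.101 without scrambled ASO replicates 1 and 2, and 0.143, 0.0893 and 0.0568 without *Pgam* ASO replicates 1, 2 and 3.

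*Hist1h2ao*, the H2A gene with the highest level per length, was not called. It had 114, 99 and 114 counts in the scrambled ASO libraries and 79, 58 and 77 in the *Pgam* ASO libraries. The groups did not overlap, and the log2 fold change was -0.51 (SE 0.21, adjusted p = 0.116 in edgeR and 0.131 in DESeq2). Summed with genes that share its sequence, the value was 0.08. That sum of 44 genes had 3684, 3683 and 3614 counts against 3531, 3228 and 4056, so it says little about *Hist1h2ao* itself. *Hist1h2ae* had 67, 73 and 43 counts against 68, 55 and 42, which overlapped, and a log2 fold change of -0.024 (SE 0.28, adjusted p = 0.962). The other 5 tested H2A genes ran from -0.61 in *Hist1h2ac* to 0.82 in *Hist1h2ab*, with adjusted p from 0.163 to 0.788. Of the 18 H2A genes 10 were not tested. *Hist3h2a*, named after its values were seen, was the only untested H2A gene below in every *Pgam* ASO library, with 23, 8 and 12 counts against 6, 5 and 4. Above in every one was the untested *Hist1h2ap*, with 0, 0 and 0 counts against 2, 2 and 1. The untested *Hist1h2an* had 6, 5 and 7 counts against 8, 7 and 15, and was above only after scaling, with 0.434 and 0.449 CPM nearest. Both were also named after their values were seen. The H2A sum was 18.2, 15.3 and 20.8 CPM against 22.8, 17.1 and 18 CPM, which overlapped, at a log2 ratio of 0.09.

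H2B held the other called genes. *Hist1h2bk* (ENSMUSG00000062727) had 10, 8 and 12 counts in the scrambled ASO libraries and 45, 24 and 22 in the *Pgam* ASO libraries. The groups were apart, and *Pgam* ASO replicate 1 stood highest. The log2 fold change was 1.69 (SE 0.43, adjusted p = 0.0276 in edgeR and 0.0114 in DESeq2). *Hist1h2bk* passed the filter on low counts only through the *Pgam* ASO libraries, where it was higher, so its call depends on that filter. With at least 10 counts required in every library it was not tested. Leaving out scrambled ASO replicate 1 or 2 or *Pgam* ASO replicate 1 or 2 took the adjusted p to 0.0927, 0.0786, 0.12 and 0.0877. *Hist1h2bj* (ENSMUSG00000069300), the H2B gene with the highest level per length, had 60, 68 and 89 counts against 136, 120 and 104. Here too the groups were apart, with 89 and 104 as the nearest counts. Its log2 fold change was 0.83 (SE 0.24, adjusted p = 0.042 in edgeR and 0.0132 in DESeq2), and without the same 4 libraries in turn the adjusted p was 0.149, 0.106, 0.134 and 0.144.

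The other 8 tested H2B genes ran from -0.63 in *Hist3h2ba* to 0.76 in *Hist1h2bb*, with adjusted p from 0.322 to 0.998. *Hist2h2be*, named after its values were seen, which shares 2.82% of its sequence stretches with other genes, was nearly level, with 78, 68 and 55 counts against 65, 60 and 59 and a log2 fold change of -0.013 (SE 0.22, adjusted p = 0.974). The H2B sum was 18.8, 17.9 and 26.0 CPM against 30.1, 23.2 and 21.4 CPM. The groups overlapped, at a log2 ratio of 0.25, while the median H2B gene was at -0.0055, so sum and median differed in sign. With replicate number as a block only *Hist1h2ag* of the 3 was called, and the adjusted p was 0.0602 for *Hist1h2bk* and 0.0867 for *Hist1h2bj*. Their log2 fold changes were then 1.65 and 0.85.

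H3 and H4 form the other pair of the core, and edgeR called 0 of their genes, with 0 at an unadjusted p under 0.05 and 0 in DESeq2, which gave no adjusted p for *Hist1h3d*, *Hist1h4f*, *Hist1h4h* and *Hist4h4*. *Hist1h3c*, the H3 gene with the highest level per length, had 97, 100 and 131 counts against 156, 80 and 76. *Pgam* ASO replicate 1 stood highest, the groups overlapped and the log2 fold change was 0.028 (SE 0.31, adjusted p = 0.96), with -0.01 under library size alone. *Hist1h3h* had 41, 29 and 51 counts against 49, 44 and 40, and a log2 fold change of 0.23 (SE 0.31, adjusted p = 0.627). Groups were apart for 3 of the 8 tested H3 genes, named after their values were seen. Of all tested genes 19.6% were apart with the *Pgam* ASO libraries above and 19.8% with them below, so such genes were not particular to H3. *Hist1h3e* was above in the *Pgam* ASO libraries (log2 fold change 0.52, adjusted p = 0.228), while *Hist1h3f* (-0.59, adjusted p = 0.318) and *Hist1h3d* (-1.18, adjusted p = 0.155) were below. *Hist1h3d* had 15, 14 and 11 counts against 5, 9 and 2, and passed the filter on low counts only through the scrambled ASO libraries, where it was higher. The counts of *Hist1h3e*, 51, 29 and 42 against 49, 50 and 65, overlapped, and its groups were apart only after scaling, with 2.87 and 3.04 CPM nearest.

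Over all libraries *Hist1h4i* had the highest mean level per length of the histone genes, but in the *Pgam* ASO libraries alone *Hist1h2bj* was higher. *Hist1h4i* had 167, 143 and 221 counts against 188, 111 and 149. The groups overlapped, at a log2 fold change of -0.15 (SE 0.25, adjusted p = 0.691). *Hist1h4k* had 27, 20 and 30 counts against 24, 25 and 21, and a log2 fold change of -0.036 (SE 0.34, adjusted p = 0.953). The extremes of H4, named after their values were seen, were *Hist1h4f* at -1.27 (SE 0.68, adjusted p = 0.212) and *Hist4h4* at 1.20 (SE 0.65, adjusted p = 0.218), each with at most 21 counts in a library. *Hist1h4h*, also named after its values were seen, was the only gene of the 11 tested in H4 with groups apart, above in the *Pgam* ASO libraries (0.94, adjusted p = 0.172). Its counts, 12, 8 and 7 against 11, 22 and 15, overlapped, and the groups were apart only in TMM-normalized CPM, with 0.675 and 0.683 nearest. *Hist1h4h* passed the filter on low counts only through the *Pgam* ASO libraries and *Hist1h4f* only through the scrambled ASO libraries, in each case the group where it was higher. Summed, H3 was at 19.4, 14.9 and 25.0 CPM against 25.3, 18.9 and 17.3 CPM, a log2 ratio of 0.054. The H4 sum was 18.9, 17.7 and 27.5 CPM against 25.8, 19.6 and 18.6 CPM, a log2 ratio of -0.00064 that became 0.0038 with RLE size factors. Both overlapped. A p above the threshold at these counts does not show that a gene was the same in both groups.

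**Figure D2:**
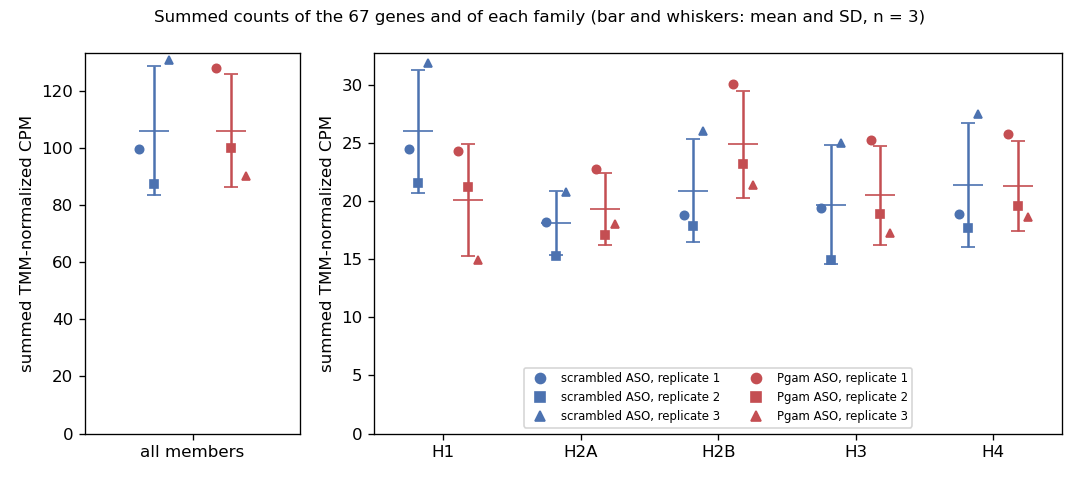
Summed TMM-normalized CPM of all 67 genes (left) and of each family (right) in each library, with the mean and SD of each group (n = 3). The groups overlap in the sum of all genes and in every family, and H1 has the largest difference between means, 26 CPM against 20.1.

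The share of each family in the histone counts was also taken, after the values were seen, and the shares depend on each other because they add up to 100%. H1 took 24.5% (95% Wilson interval 22.6 to 26.6), 24.7% (22.7 to 26.9) and 24.3% (22.5 to 26.2) of the histone counts in scrambled ASO replicates 1, 2 and 3. It took 18.9% (17.3 to 20.7), 21.2% (19.3 to 23.3) and 16.5% (14.8 to 18.5) in *Pgam* ASO replicates 1, 2 and 3, all of them below the lowest share of the other label. H2B took 18.8% to 20.5% in the scrambled ASO libraries and 23.2% to 23.7% in the *Pgam* ASO libraries, again without overlap but in the other direction. Shares without the genes that differed most were chosen after seeing the data, and leaving out such genes moves a share toward overlap. Without *Hist1h1c*, the other 5 H1 genes held 6.15%, 8.41% and 6.89% in the scrambled ASO libraries and 7.79%, 8.72% and 7.02% in the *Pgam* ASO libraries. Without *Hist1h2bj* and *Hist1h2bk*, the other 16 H2B genes held 14.9%, 15.8% and 15.1% against 14.7%, 14% and 15.4%. Both then overlapped, and the shares of H2A, H3 and H4 overlapped with all genes in. Intervals cover counting error only and were not used as a test.

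The genes were also divided by the end of the annotated mRNA, with a limit of 100 bases chosen after the values were seen. The 23 genes whose annotated mRNA extends at least 100 bases past the hairpin, *Hist1h1c* among them, held 54.0%, 54.0% and 52.1% of the histone counts in the scrambled ASO libraries and 45.5%, 45.9% and 45.1% in the *Pgam* ASO libraries. The 23 genes that end closer to it, the 3 called genes among them, held 28.5%, 28.2% and 30.6% against 35.4%, 35.9% and 34.3%. Neither pair of groups overlapped. Outside both sets, the 15 genes without an annotated 3′ UTR held 9.31%, 9.46% and 10.9% against 12%, 11% and 12.8%, with 10.9% and 11% nearest. Of these 15 genes 6 were tested, with 5 log2 fold changes above 0 and 1 below. The 6 genes with a 3′ UTR but no hairpin held 8.18%, 8.28% and 6.51% against 7.02%, 7.25% and 7.87%, which overlapped. Without *Hist1h1c* the first set held 35.6%, 37.7% and 34.6% against 34.4%, 33.4% and 35.6%, which overlapped. Without the 3 called genes the second held 23.5%, 22.9% and 24.4% against 23.5%, 24.4% and 22.5%, which overlapped too. The genes left out had been chosen for their own differences, so these overlaps do not show that the rest of each set was level. In CPM the sums of both full sets overlapped, at log2 ratios of -0.22 and 0.27. Of the first set 18 were tested, with 6 log2 fold changes above 0, 12 below and a median of -0.17. Of the second 15 were tested, with 12 above, 3 below and a median of 0.41. The sets also differ in family and in how much sequence their genes share with others, and the part of each in the difference was not tested.

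The 3 called genes lie close together, with an uncalled gene among them. With gaps of over 100 kb as borders, a division chosen after the values were seen, the Hist1 cluster falls into 4 blocks of 18, 5, 29 and 2 genes. The block of 5, at chr13:22035164-22043676, spans 8.51 kb and holds *Hist1h2ah*, *Hist1h2bk*, *Hist1h4i*, *Hist1h2ag* and *Hist1h2bj* in that order. Of its 4 tested genes 3 were called higher, beside 8.03% of all tested genes. *Hist1h2bk* and *Hist1h2bj* share 75.3% and 67.2% of their stretches with other genes, and whether their calls are separate was not tested. *Hist1h4i*, which sits between *Hist1h2bk* and *Hist1h2ag*, had a log2 fold change of -0.15. *Hist1h2ah*, which was not tested, had 5, 5 and 19 counts against 8, 10 and 8. The block's summed level was 14.7, 12.7 and 23.0 CPM against 27.5, 19.2 and 19.9 CPM, which overlapped at a log2 ratio of 0.40. Its share of the histone counts was 14.7%, 14.5% and 17.5% against 21.4%, 19.2% and 22%, without overlap, but the 3 called genes are part of it and the division was drawn with their values known, so this share is not separate from their calls. Its other 2 genes, *Hist1h4i* and *Hist1h2ah*, held 9.71%, 9.15% and 11.3% of the histone counts against 9.49%, 7.76% and 10.3%, which overlapped. In the blocks of 18 and 29 genes, with 11 and 22 tested, edgeR called 0, beside 17.2% of all tested genes in either direction. At an unadjusted p under 0.05, 1 gene of each was lower and 0 higher, and DESeq2 called 1 lower in the block of 29. The summed levels of the blocks of 18 and 29 had log2 ratios of 0.038 and -0.15. The block of 2, *Hist1h2aa* and *Hist1h2ba*, had a count of 0 in every library.

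**Figure D3:**
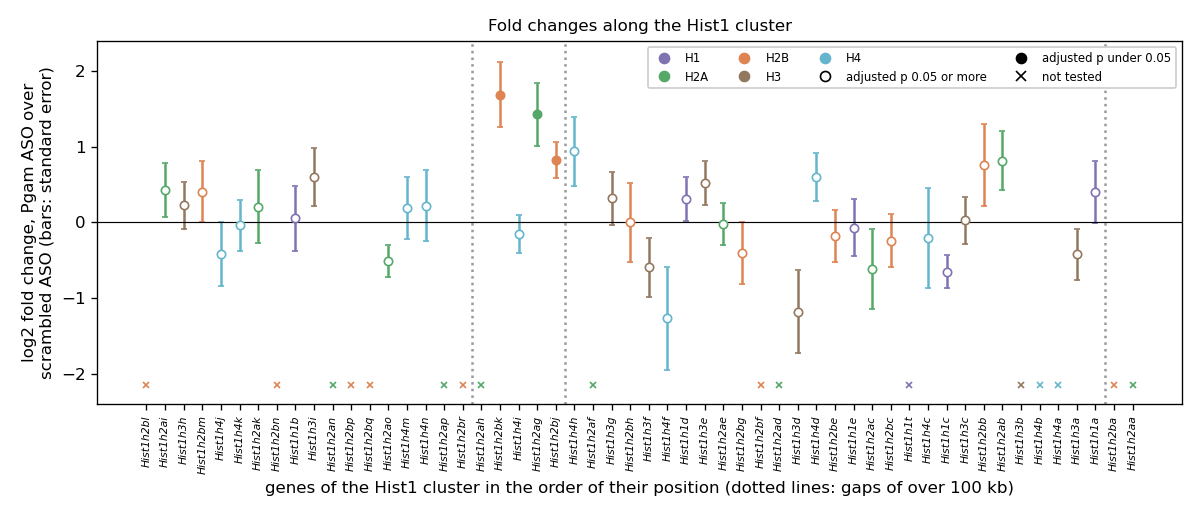
Log2 fold change (Pgam ASO over scrambled ASO) with its SE for the genes of the Hist1 cluster, in the order of their position and coloured by family. Dotted lines mark gaps of over 100 kb, crosses mark genes not tested, and filled points the 3 genes with an adjusted p under 0.05, which all lie in the block of 5 genes.

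*Hist1h2ag* and *Hist1h2bj* are transcribed away from each other from start sites with 269 bases between them. Such divergent pairs of 1 H2A and 1 H2B gene, under 500 bases apart, number 12 among the 67 genes, and *Hist1h2bk* belongs to another with *Hist1h2ah*. Both genes were tested in 4 pairs. The log2 fold changes were 1.43 and 0.83 for *Hist1h2ag* and *Hist1h2bj*, -0.024 and -0.40 for *Hist1h2ae* and *Hist1h2bg*, -0.61 and -0.24 for *Hist1h2ac* and *Hist1h2bc*, and 0.78 and -0.013 for *Hist2h2ac* and *Hist2h2be*. *Hist1h2ae* (SE 0.28), *Hist2h2be* (SE 0.22), *Hist1h2bg* (SE 0.41) and *Hist1h2bc* (SE 0.35) were too near 0 for their signs to be read. *Hist1h2ac* (SE 0.53) and *Hist2h2ac* (SE 0.48) were not called either.

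The promoters of the 3 called genes are shown because these genes of 1 block were all called higher. RefSeq promoters of 300 bases, from 250 before to 50 after the start, were found for 62 of the 67 genes on GRCm38.p6. The 100 bases before the start are printed 5′ to 3′ on the strand of the gene, at chr13:22035721-22035820 (+) for *Hist1h2bk*, chr13:22043098-22043197 (+) for *Hist1h2bj* and chr13:22042950-22043049 (-) for *Hist1h2ag*. Capitals mark the letters CCAAT and ATTTGCAT (the octamer) on either strand, so that ATTGG is CCAAT on the other strand.
Hist1h2bk: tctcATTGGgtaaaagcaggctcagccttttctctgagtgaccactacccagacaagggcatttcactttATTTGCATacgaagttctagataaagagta
Hist1h2bj: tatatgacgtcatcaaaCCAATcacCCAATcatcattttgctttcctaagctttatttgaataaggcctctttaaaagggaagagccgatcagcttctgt
Hist1h2ag: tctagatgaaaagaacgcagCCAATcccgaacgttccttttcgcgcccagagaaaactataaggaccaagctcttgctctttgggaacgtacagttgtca
CCAAT stands in all 3 and the octamer in *Hist1h2bk*. Over the full 300 bases and both strands, CCAAT was found in 85.5% of the 62 promoters against 37.9% of 27025 promoters of all genes. It was in every H1, H2A, H2B and H3 promoter and in 25% of the 12 H4 promoters. The octamer was in 38.9% of H2A and 37.5% of H2B promoters and in 0% of the others, against 1.75% of all promoters, and TATAAA in 56.5% against 14.2%. A match describes the letters and not a bound site.

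Many of these genes share much of their sequence with others, which bears on their single-gene values above. The share of 31-base stretches that also occur in another gene had a median of 60.2% and reached at least 50% in 42 of the 67 genes, and kallisto has to divide the reads from such stretches. These shares come from GENCODE M21, while the deposited table holds genes that M21 lacks, so they and the sums below may differ from those of the authors' index. It was 75.3% in *Hist1h2bk*, 67.2% in *Hist1h2bj*, 79.8% in *Hist1h2ag* and 93.8% in *Hist1h2ao*, so the levels of these genes are uncertain. Under 10% was shared by 6 genes, 5 of them tested, namely *Hist1h1a*, *Hist1h1b*, *Hist1h1d*, *Hist2h2be* and *Hist2h4*, with adjusted p from 0.468 to 0.974. Each gene was therefore also summed with every gene that shares at least 10% of its stretches. *Hist1h2bk* and *Hist1h2bj* fall in the same sum of 15 genes, all of them H2B, with 223, 231 and 349 counts against 408, 291 and 276. These overlapped, and the log2 fold change was 0.37 (SE 0.24, adjusted p = 0.3 in edgeR). The sum for *Hist1h2ag* joins 43 genes and had 2846, 2910 and 2540 counts against 2409, 2346 and 2993, with a log2 fold change of 0.0072 (SE 0.089, adjusted p = 0.964). Most of it is *H2afx*, a variant with 2502, 2594 and 2182 counts against 2025, 2050 and 2676, so it says little about *Hist1h2ag* itself. In this fit edgeR called 0 of the summed histone genes, with 1 sum higher and 1 lower at an unadjusted p under 0.05, and DESeq2 was not run on the sums. *Hist1h1c* has no such partner and kept a log2 fold change of -0.65 (adjusted p = 0.065).

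Of the 7 genes at 0, 5 lie in the Hist2 cluster and share every stretch with other annotated genes, so a count of 0 does not show that they were silent. They are *Hist2h2aa1*, *Hist2h2aa2*, *Hist2h2bb*, *Hist2h3b* and *Hist2h3c1*. The overlapping gene models *Gm20633*, *Gm20634* and *Gm20628* had counts of 0 to 11 in each library.

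Replication-independent variants were far more abundant in these libraries. Levels between genes are given per length, as TPM, here counts per kilobase of the longest annotated transcript scaled to a sum of 1000000 a library. The 3 H3 variant genes summed to 1021, 1055 and 984 TPM in the scrambled ASO libraries and 932, 986 and 984 in the *Pgam* ASO libraries, and the 12 H3 histone genes to 82.7, 64.1 and 105 against 107, 79.5 and 72.6. The replication-dependent genes made up 5.73% to 10.3% of this H3 total, 3.83% to 5.33% for H2A and 8.35% to 14.2% for H1, in libraries that select for poly(A) tails.

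**Figure D4:**
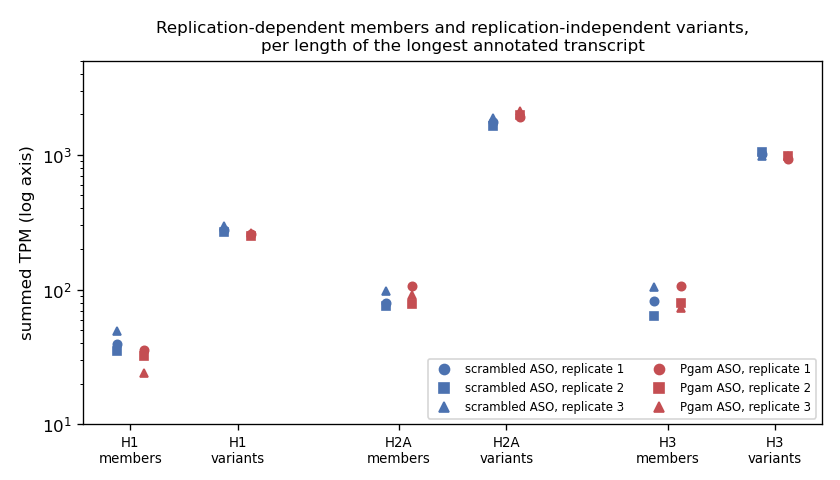
Summed level per length, in TPM on a log axis, of replication-dependent genes (members) and replication-independent variants of H1, H2A and H3 in each library. Variants lie above members in every library, with H2A variants at 1642 to 2122 and H2A members at 75 to 107.

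Of the 11 variant genes found, all tested, 1 (9.09%) was called higher and 1 lower, at a median of -0.0014. For these and the lists that follow, the shares of all tested genes were 8.03% higher and 9.15% lower. Over all 14936 tested genes, 2564 were higher and 2650 lower at an unadjusted p under 0.05, and DESeq2 called 1554 higher and 1659 lower. *H2afz*, which encodes H2A.Z, had 440, 375 and 505 CPM in the scrambled ASO libraries and 584, 603 and 591 in the *Pgam* ASO libraries. The groups were apart, at a log2 fold change of 0.43 (SE 0.11, adjusted p = 0.0256). *H2afv*, which encodes a second form of H2A.Z, had 89.5, 94.3 and 91.6 CPM against 55.9, 67.4 and 82.7, all lower, at -0.42 (SE 0.13, adjusted p = 0.0475). The *H2afz* call was lost without scrambled ASO replicate 1 (adjusted p = 0.0925) or *Pgam* ASO replicate 1 (0.0682) or 2 (0.113), and the *H2afv* call without any library but *Pgam* ASO replicate 3 (0.0648 to 0.162). Both were also lost with replicate number as a block, at 0.44 (adjusted p = 0.0553) for *H2afz* and -0.44 (0.0619) for *H2afv*. Not called were *H2afx* (log2 fold change -0.0014, 0.0033 with RLE size factors), *H3f3a* (-0.14), *H3f3b* (0.077), *H1f0* (-0.11) and *H1fx* (0.25).

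The genes that transcribe, cut and degrade histone mRNA were examined as a list of 24, all tested. edgeR called 0 higher and 1 (4.17%) lower, with 7 higher and 4 lower at an unadjusted p under 0.05, and DESeq2 called 2 higher and 2 lower. The median was 0.13. *Slbp*, whose product binds the hairpin, had 133, 118 and 142 CPM in the scrambled ASO libraries and 155, 166 and 156 in the *Pgam* ASO libraries. All *Pgam* ASO libraries were above, at a log2 fold change of 0.28 (SE 0.09), with an adjusted p of 0.0569 in edgeR, 0.0402 in DESeq2 and 0.0304 in edgeR without scrambled ASO replicate 3. *Tut4*, a uridylyl transferase, had 131, 180 and 113 CPM against 65.5, 80.9 and 101. It was called lower, at -0.77 (SE 0.2, adjusted p = 0.0392), and the call was lost without scrambled ASO replicate 1 (adjusted p = 0.0852) or 2 (0.0852) or *Pgam* ASO replicate 1 (0.0857) or 2 (0.125), with library size alone (0.0526) and with replicate number as a block (0.0502). Its log2 fold change was -0.81 with library size alone and -0.77 with the block. Not called by edgeR were *Lsm10* (0.22) and *Lsm11* (0.33), ring proteins of the U7 particle at the site where the mRNA is cut, *Npat* (-0.019), the activator of histone transcription, *Casp8ap2* (0.075) and *Eri1* (0.11), an exonuclease that trims the hairpin end.

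Histone chaperones and importers carry the new proteins to DNA. Of 26 such genes, all tested, edgeR called 7 (26.9%) higher and 1 (3.85%) lower, at a median of 0.22. With replicate number as a block it called 0. *Ipo4*, an importer of H3 and H4, had a log2 fold change of 0.51 (SE 0.14, adjusted p = 0.0333), *Hat1*, which acetylates new H4, 0.44 (SE 0.11, adjusted p = 0.0266) and *Chaf1b*, of the assembly factor CAF-1, 0.43 (SE 0.11, adjusted p = 0.0283). All 3 were above in every *Pgam* ASO library, and all 3 calls were lost without scrambled ASO replicate 1 or 2 or *Pgam* ASO replicate 1 or 2, with adjusted p from 0.0525 to 0.124. With the block they had log2 fold changes of 0.52, 0.44 and 0.44, in the same order, and adjusted p of 0.0511, 0.0634 and 0.0608. *Atrx*, which places the H3.3 variant, was called lower at -0.28 (SE 0.075, adjusted p = 0.034), and without scrambled ASO replicate 1 or any 1 *Pgam* ASO library its adjusted p was 0.0742 to 0.119. Without a filter on low counts its log2 fold change was -0.27 (adjusted p = 0.0511 in edgeR), and with the block -0.28 (0.102).

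Genes of the replication fork are active in the same phase of the cell cycle as the histone genes. All 41 were tested and all 41 had a log2 fold change above 0, at a median of 0.31, against 24 of 42 histone genes and a median of 0.086. edgeR called 12 (29.3%) higher and 0 lower, with 30 higher and 0 lower at an unadjusted p under 0.05, and DESeq2 called 18 higher and 0 lower. Summed, they were at 5963, 5097 and 6437 CPM in the scrambled ASO libraries and 7471, 7449 and 6944 CPM in the *Pgam* ASO libraries, without overlap. The sum of the histone genes did overlap, as given above, and the difference between the lists was not tested. *Rrm2*, a subunit of ribonucleotide reductase, had the largest called change, a log2 fold change of 0.53 (SE 0.1, adjusted p = 0.0103), followed by *Pold2*, of DNA polymerase delta, at 0.47 (SE 0.12, adjusted p = 0.0255) and *Tk1*, thymidine kinase, at 0.46 (SE 0.088, adjusted p = 0.0111). The *Rrm2* call was lost without *Pgam* ASO replicate 2 (adjusted p = 0.0704), the *Tk1* call without scrambled ASO replicate 1 (0.0613) or *Pgam* ASO replicate 2 (0.0636), and the *Pold2* call without scrambled ASO replicate 1 or 2 or *Pgam* ASO replicate 1 or 2 (0.0557 to 0.118). With replicate number as a block *Rrm2* and *Tk1* were called, while *Pold2*, at 0.48 (adjusted p = 0.0614), was not.

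The number of called genes in these lists rested on single libraries, as it did over all genes. Without scrambled ASO replicates 1, 2 and 3 in turn, edgeR called 620, 1256 and 3484 of all tested genes, and without *Pgam* ASO replicates 1, 2 and 3 it called 871, 391 and 3319, against 2565 with all libraries. In the same order, calls among fork genes numbered 1, 4, 24, 2, 0 and 15, and among chaperones and importers 0, 2, 11, 0, 0 and 10. Histone genes called higher numbered 0, 0, 4, 0, 0 and 2. At an unadjusted p under 0.05, these fits held 18 to 37 fork genes, 10 to 18 chaperones and importers in either direction, 3 to 6 histone genes higher and 0 to 4 lower, beside 3844 to 5724 of all tested genes in either direction. DESeq2 was not run without single libraries.

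**Figure D5:**
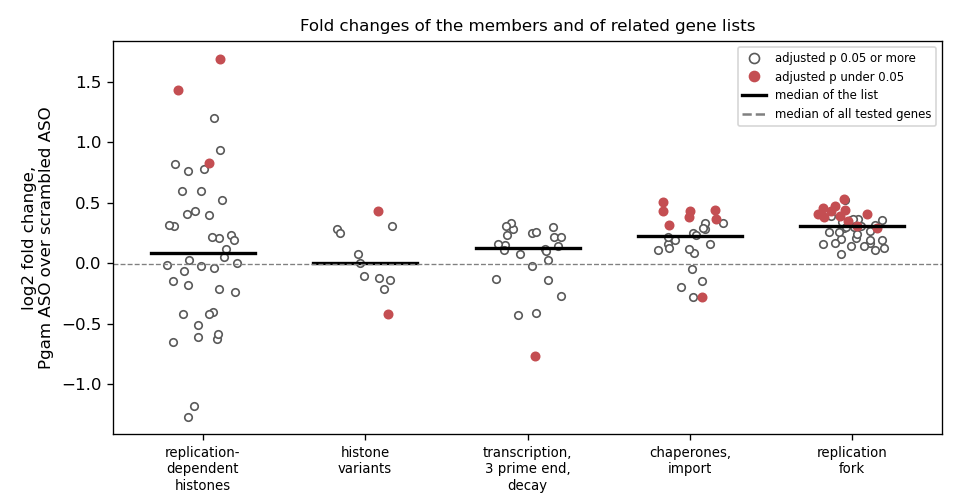
Log2 fold change (Pgam ASO over scrambled ASO) of the 42 tested histone genes and of the genes of 4 related lists, 1 point a gene, with sideways scatter added so that points can be told apart. Red points have an adjusted p under 0.05 in edgeR, thick bars are the medians (0.086, -0.0014, 0.13, 0.22 and 0.31 from left to right) and the dashed line is the median of all tested genes, -0.0061.

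Other RNAs that lack a usual poly(A) tail moved in both directions. Of 15 listed, 9 were in the table and 3 were tested. *mt-Rnr1*, a mitochondrial ribosomal RNA, had 343, 382 and 316 CPM in the scrambled ASO libraries and 630, 826 and 809 in the *Pgam* ASO libraries, all higher, at a log2 fold change of 1.12 (SE 0.12, adjusted p = 0.000768). *Malat1*, a nuclear RNA with a triple-helix end, had 2144, 2578 and 2008 CPM against 1428, 1381 and 1690, all lower, at -0.58 (SE 0.11, adjusted p = 0.0116), a call lost without *Pgam* ASO replicate 2 (0.0815). *mt-Rnr2*, named after its values were seen, was above in every *Pgam* ASO library at 0.31, with an adjusted p of 0.0683 in edgeR and 0.0393 in DESeq2, and 5 of the 9 had a count of 0 in every library. Whether capture of such RNAs differed between the libraries was not tested.

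Markers of the cell types that the cultures could hold were examined beside the histone genes. All 6 markers of CD4 T cells were present, at summed levels of 3011, 2999 and 2979 CPM in the scrambled ASO libraries and 2852, 2905 and 3005 in the *Pgam* ASO libraries, with *Thy1* the most abundant. *Thy1* was above in every *Pgam* ASO library (log2 fold change 0.21, adjusted p = 0.112), while *Cd3e* (-0.37), *Cd3d* (-0.27), *Cd4* (-0.21) and *Trac* were below in every one. At an unadjusted p under 0.05 these 4 were lower and *Thy1* was higher. edgeR called 1 of the 6 lower, and DESeq2 called *Cd3e* (adjusted p = 0.0265) and *Trac* lower. *Trac*, the T cell receptor alpha constant region, was called lower at a log2 fold change of -0.30 (SE 0.088, adjusted p = 0.0416), a call that edgeR lost without scrambled ASO replicate 1 or 2 or *Pgam* ASO replicate 1 or 2 (adjusted p = 0.0898 to 0.153). The 2 CD8 markers summed to 11.3, 13.5 and 10.8 CPM against 14.6, 10.9 and 15.7, with *Cd8b1* the more abundant. *Cd8a* was called higher at 1.12 (SE 0.29, adjusted p = 0.0286), and without scrambled ASO replicate 1 (0.0989) or *Pgam* ASO replicate 1 (0.1) it was not. *Cd8b1* was at -0.20 (adjusted p = 0.454), with overlap, so the markers differed in sign. The summed levels of 4 B cell markers, most from *Cd79a*, were 8.44, 10.4 and 5.64 CPM against 7.20, 6.93 and 7.10. Those of 5 myeloid markers, led by *Lyz2*, were 2.98, 3.51 and 1.80 CPM against 2.79, 2.31 and 3.08. The 3 erythroid markers, led by *Alas2*, had 2.59, 2.16 and 1.43 CPM against 1.30, 1.86 and 1.60. The 2 NK markers reached at most 0.108 CPM, with *Klrb1c* at 0 in every library. Of these 4 lists edgeR called 0 genes, with 1 B cell marker higher and 1 lower at an unadjusted p under 0.05 and the same numbers called by DESeq2. The 4 markers of proliferation, of which *Pcna* is also a fork gene and *Mki67* the most abundant, summed to 3166, 2769 and 3182 CPM against 3294, 3546 and 3389. That sum was higher in every *Pgam* ASO library, *Ccnb1* was called higher at 0.41 (SE 0.12, adjusted p = 0.042), a call lost without scrambled ASO replicate 1 or 2 or *Pgam* ASO replicate 1 or 2 (adjusted p = 0.0694 to 0.143), and *Mki67* was at -0.0031. At an unadjusted p under 0.05, 3 of the 4 were higher, and DESeq2 called the same number, namely *Ccnb1*, *Pcna* (adjusted p = 0.0228) and *Top2a* (0.0445). With replicate number as a block the adjusted p was 0.1 for *Trac*, 0.0699 for *Cd8a* and 0.0723 for *Ccnb1*, so none of these calls held. Their log2 fold changes were about as large, at -0.30, 1.08 and 0.42. The part of these markers in the values of the histone genes was not tested.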

How the data were processed

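The authors deposited estimated counts per Ensembl gene for each library, made with kallisto (version not given) for GRCm38 and written as whole numbers. All 6 libraries were used, and 0 columns were left unmapped. Symbols, coordinates and lengths came from GENCODE M21; 4675 genes without a model there (1.42% of counts) could not match the rule. In R 4.3.3, edgeR 4.0.16 (filterByExpr, TMM, robust quasi-likelihood test, two-sided, Benjamini-Hochberg over 14936 genes, threshold 0.05) compared the labels. DESeq2 1.42.0, RLE factors, library size alone, other filters, a replicate block, each library left out, a threshold of 0.01 and sums over read-sharing genes were alternatives. Members and lists were chosen with earlier results of these data known. Named genes were both targets, every called member, the 2 members of each family highest per length, up to 3 called genes per direction and list, and 13 preset genes; all others were named after their values were seen. The procedure was tested on simulated data. Promoter sequences came from RefSeq on GRCm38.p6; protein sequences and the full genome were not used.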

Additional observations from a re-analysis of the deposited data

How the results depend on the processing

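Counts of called genes depended on the settings. Histone genes called higher numbered 3, but 2 with at least 10 counts in every library, where *Hist1h2bk* was not tested. They numbered 1 with replicate number as a block, 0 when summed with read-sharing genes and 0 at a threshold of 0.01. Those called lower numbered 0, but 1 with DESeq2, 1 with library size alone and 1 without a filter. The variant list had 2 calls, but 0 with the block and 0 at 0.01. The processing list had 1, but 4 with DESeq2, 4 without a filter, 2 with at least 10 counts in every library, 0 with the block and 0 at 0.01. Chaperones and importers had 8, but 0 with the block and 0 at 0.01. Fork genes had 12, but 21 without a filter, 2 with the block and 0 at 0.01. With the block, edgeR gave at an unadjusted p under 0.05 3 histone genes higher and 2 lower, 2 variant, 7 processing, 12 chaperone and 26 fork genes, beside 2137 of all 14936 genes higher and 2363 lower. Leaving out 1 library gave 0 to 4 histone genes higher and 0 to 1 lower, 0 to 3 variant, 0 to 5 processing, 0 to 11 chaperone and 0 to 24 fork genes, a median of the histone genes from -0.057 to 0.27 and a log2 ratio of their sum from -0.16 to 0.19. The cause was not tested.

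Some named genes, most with a log2 fold change near 0, changed sign. The sums of read-sharing genes that hold *Hist1h2ao* and *Hist1h2ae* were at 0.08 and 0.0072. Each gene was a small part of its sum, so these signs are not its own. *Hist1h3c* was at -0.01 with library size alone and -0.023 with the block. *H2afx* was at 0.0034 with DESeq2, 0.0033 with RLE and 0.0094 without a filter. Without 1 library, *Hist1h1e* ran from -0.37 to 0.32, *Hist1h2ae* from -0.20 to 0.17, *Hist1h3c* from -0.39 to 0.25, *Hist1h4i* from -0.36 to 0.11, *Hist1h4k* from -0.22 to 0.16, *Npat* from -0.066 to 0.042 and *H2afx* from -0.10 to 0.067. Of 478 values of 39 named genes under alternatives, 368 kept direction and side of the threshold, 77 fell short of it, 9 newly passed and 24 changed sign. The cause was not tested.

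For libraries with equal replicate numbers, deviations from the group mean correlated across genes at r of 0.0534, -0.034 and -0.237. Of 6 libraries, 1 correlated best with its own number. Groups of 3 libraries are too small for this to decide whether equal numbers share an animal or a culture. Neither the labels nor the paper say so. Genes are not independent replicates. At this depth 25 of 67 histone genes were untested.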
